A study of Homo sapiens with 6 samples.

Results

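The DNA methylome of Conventional H9 cells was read from 3 whole-genome bisulfite sequencing (BS-seq) libraries, out of 6 libraries in the series, and is described here on its own. H9 is an established human embryonic stem cell line. The Conventional cultures were kept in FGF/KSR, a DMEM/F12 medium with basic fibroblast growth factor and KSR, on mouse embryonic fibroblast feeders in low oxygen, and the labels name no transgene and no inhibitor for them. The other 3 libraries of the series, from Reset H9 cells, were not used. The libraries were selected by their condition label, Conventional. All 3 come from a single cell line. The study calls its BS-seq libraries biological replicates, while the labels do not state whether they come from separate cultures, so the p-values below measure only the spread between these libraries.

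The libraries held 98004161, 93884092 and 92023996 cytosine calls, a call being 1 read at 1 CpG cytosine. Summed over both strands of each CpG, this gave 3.50, 3.35 and 3.28 calls per autosomal CpG, and 10.1 calls per CpG when the libraries were pooled. A methylation level is the share of calls in which the cytosine was read as methylated. The shares over all autosomal calls were 84.4%, 84.7% and 84.4%, so the libraries hardly differed in their overall level. Intervals and tests on calls cover counting error only, because the calls of 1 read or of 1 amplified fragment are not independent.

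In mammals, methyl groups are added to CpG cytosines by the DNMT enzymes and removed with the help of the TET enzymes, and most of the genome is methylated in human embryonic stem cells grown in FGF. Stretches rich in CpG at gene starts, called CpG islands, are usually kept free of methylation. Long unmethylated valleys often cover genes for developmental regulators, and imprinted genes carry methylation on the copy from 1 parent.

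Promoter stretches of SOHLH2 and HBG2 and a distal window show the kinds of sequence met below, on GRCh37 and read 5′ to 3′ along the strand named. In the promoters each CpG is in capitals, and each stretch of 250 bases is the one nearest the gene start with at least 50 pooled calls. SOHLH2, a germ cell transcription factor, had the most methylated promoter of the germ cell list, at 97.7% over 571 calls. The stretch of it shown (chr13:36788694-36788943, minus strand) was at 98.3% over 115 calls. HBG2, a fetal globin gene, shows a CpG-poor promoter of a tissue gene (chr11:5276612-5276861, minus strand), with all 65 calls methylated.
SOHLH2: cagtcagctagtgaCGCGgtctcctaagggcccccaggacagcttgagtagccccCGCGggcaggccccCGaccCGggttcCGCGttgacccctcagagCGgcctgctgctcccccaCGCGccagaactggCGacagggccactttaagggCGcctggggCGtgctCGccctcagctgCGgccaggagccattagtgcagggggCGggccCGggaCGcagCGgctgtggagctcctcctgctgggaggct
HBG2: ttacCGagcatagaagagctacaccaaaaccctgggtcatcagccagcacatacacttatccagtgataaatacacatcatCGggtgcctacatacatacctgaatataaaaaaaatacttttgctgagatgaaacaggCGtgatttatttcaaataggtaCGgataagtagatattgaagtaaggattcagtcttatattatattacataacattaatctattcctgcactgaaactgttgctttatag
The stretch of SOHLH2 held 20 CpGs and that of HBG2 held 4, and both were almost fully methylated.

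The distal window lay in an intron of CACHD1 (chr1:64938001-64939000), 2689 bp from the nearest gene start. Its 150 bases around an octamer, the ATGCAAAT motif that POU factors such as OCT4 bind, are given with the octamer in capitals (chr1:64938124-64938273, minus strand).
Distal window: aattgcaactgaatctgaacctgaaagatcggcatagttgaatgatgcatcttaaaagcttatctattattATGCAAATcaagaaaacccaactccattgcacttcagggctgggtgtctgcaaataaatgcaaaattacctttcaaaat
The whole window held 7 CpGs and 0 of 106 methylated calls, which allows a level of up to 2.83%. The calls came to 39, 20 and 47 in the 3 libraries, and all were unmethylated. It was taken as the lowest of 240 distal low windows with this motif and at least 3 CpGs.

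Most of the autosomal genome was highly methylated, and low methylation was rare and short. Of 2663101 windows of 1 kb with a CpG, 2414658 (90.7%) held at least 30 pooled calls, with a median of 95 calls and 8 CpGs. Their mean level was 87.9%, 88.0% and 87.8% in the 3 libraries, or 87.9% ± 0.079 (SD, n = 3). In the pooled calls the median window was at 91.8%, and the 5th, 25th, 75th and 95th percentiles stood at 65%, 87.0%, 94.7% and 97.7%. The distribution was one-sided, with a broad main mass over 80% and a small separate mass near 0.

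Windows were called low under 20%, high over 80% and intermediate between. Low windows made up 1.38% of all (33214), intermediate windows 11.0% (265949) and high windows 87.6% (2115495). The intermediate share depends on these bounds, and was 37.3% with bounds of 10 and 90% and 4.68% with 30 and 70%. The share of low windows per library was 1.41% ± 0.0047 (SD, n = 3), so the libraries differed little. The share of intermediate windows per library was 13.9% ± 0.237 (SD, n = 3), above the pooled share. A window holds a median of 30 to 32 calls in 1 library against 95 in the pool, so a level from 1 library is less precise.

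**Figure D1:**
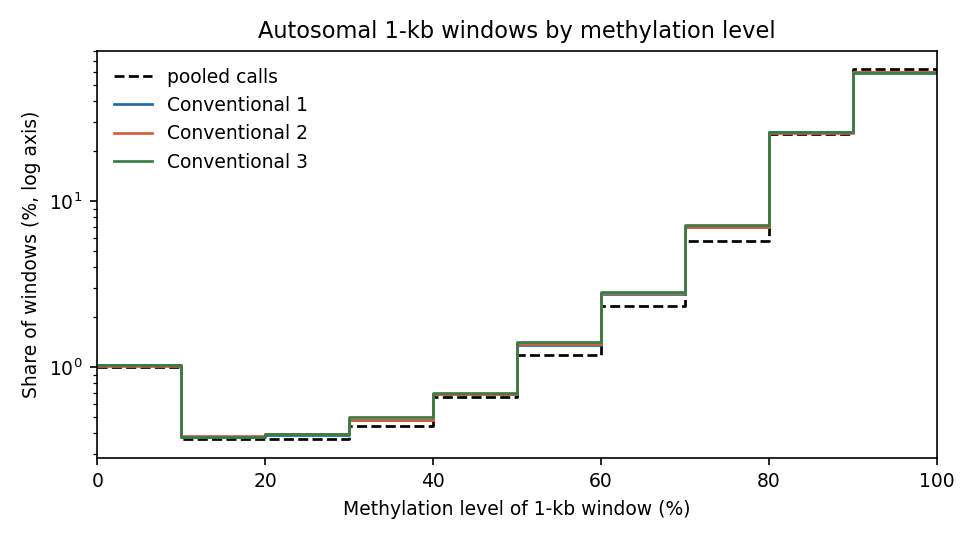
Share of autosomal 1-kb windows (y axis, percent, log axis) in each 10-point bin of methylation level (x axis, percent), for the 3 libraries and for the pooled calls (dashed). The 3 library curves lie on each other, with 62.4% of pooled windows over 90%, 1.01% under 10%, and the fewest between 10 and 30%.

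The CpG number of a window went with its class. Among windows with 1 to 5 CpGs 0.117% were low, among those with 21 to 40 CpGs 3.25%, with 41 to 60 CpGs 32.2%, and with 61 or more CpGs 75.8%. The median level fell from 92.0% at 21 to 40 CpGs to 76.3% at 41 to 60 and 3.16% at 61 or more. The change thus sat in the windows richest in CpG. Those with 61 or more CpGs were 0.807% of all windows and held 44.5% of the low ones. Between 1 and 20 CpGs the median stayed between 91.7% and 92.1%. Even in the densest windows, 15.3% were high.

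**Figure D2:**
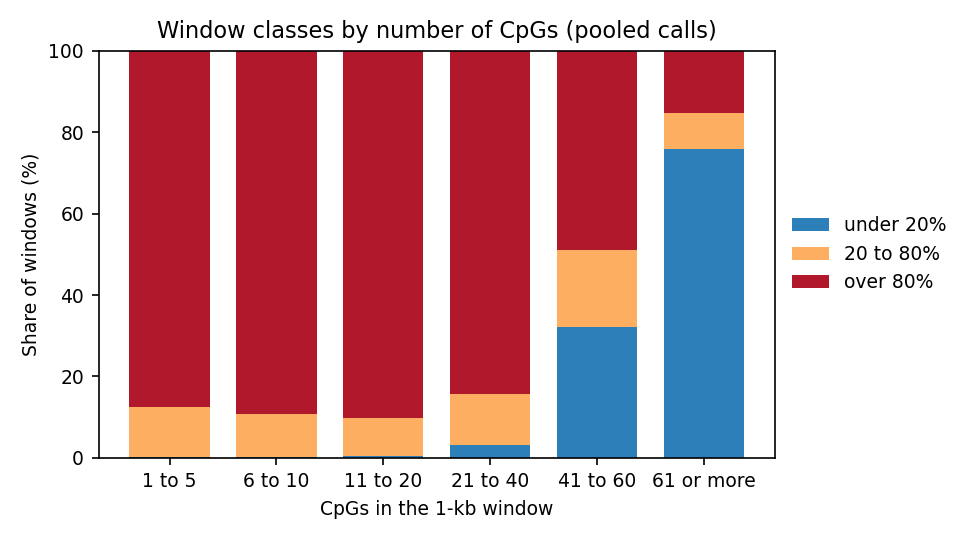
Stacked shares of low (under 20%), intermediate (20 to 80%) and high (over 80%) 1-kb windows (y axis, percent) by the number of CpGs in the window (x axis), from pooled calls. The low share rises from 0.117% in the first bar to 75.8% in the last, while the intermediate share is highest, 19.0%, at 41 to 60 CpGs.

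Position relative to genes separated the windows as well. Windows over a coding promoter had a median of 35.3%, with 41.8% of them low. Windows that touched a promoter or a CpG island were kept out of the exon, gene and between-gene classes. Windows over other promoters had a median of 90.9%, exons of coding genes 92.9%, coding genes without an exon 92.2%, and DNA between genes 91.5%. Low windows were thus concentrated at coding promoters, which held 53.9% of them, and 81.1% of low windows touched a CpG island. Islands, here merged 500-bp stretches in which G and C made up 55% or more and CpGs reached 0.65 of the number their base content predicts, differed by position. The 12821 islands at a coding promoter had a median of 3.26%, and 89.1% were low. The 16051 islands inside genes but away from coding promoters had a median of 90.8%, and the 5886 between genes 90%. An island away from a coding start was thus more often high than low, although 24.3% and 19.2% of these were low.

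Low windows that were both distal and CpG-poor were rare. Windows of this kind lay over 2000 bp from any gene start, held at most 10 CpGs and touched no promoter or CpG island. Of 1519303 such windows 1763 (0.116%) were low, with a median of 12.2% and of 85 calls. Of these, 64.8% lay in a gene, close to the 62.6% of high windows of this kind. The octamer ATGCAAAT was found on either strand in 16.2% of them and in 11.0% of all windows of this kind. The CTCF core CNAGGGGGC, of the factor that holds chromatin loops, was found in 2.38% against 1.00%, and the TEAD motif ACATTCC in 19.1% against 14.6%. The SOX motif CATTGTT stood at 23.03% against 21.2%. The GATA motif was searched as AGATAAG and stood at 16.4% against 15.7%. The E-box CACGTG stood at 6.41% against 6.74%. The AP-1 motif TGANTCA was at 30.6% against 30.1%. Motifs were searched on both strands and may overlap. These shares are descriptions, and a match is no sign of binding.

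Low windows joined into long valleys over the genes of developmental regulators. A valley was a run of low windows of at least 5 kb, bridging at most 1 window with too few calls. There were 640 valleys, which covered 5111 kb in all, 142 of them at least 10 kb and 24 at least 20 kb long. Their median level was 3.23%, with 49.6 CpGs per kb, and the most methylated stood at 14.3%. A coding gene started in 476 of them. Outside, where a valley ends by definition at a window that is not low, the median was 50% in the first kb, 77.9% in the second and 88.7% in the tenth. Not every flank rose at once, since the lower quartile was 30.6% in the first kb, 40.2% in the second, 34.0% in the third, 39.8% in the fourth and 75.5% in the tenth.

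The longest valley covered 29 kb around NR2F2, a nuclear receptor of vascular and mesenchymal development (chr15:96864001-96893000), at 2.49%, 3.98% and 2.67% in the 3 libraries. The next covered 28 kb around GATA3, a zinc finger factor of T cell and trophoblast development (chr10:8076001-8104000), at 2.82%, 3.37% and 2.49%. That around HAND2, a factor of heart and limb development, was 27 kb long and stood at 3.21%, 3.51% and 3.24%. All 3 genes lay at under 4% in every library. PAX6, an eye and forebrain regulator, lay in a valley of 26 kb at 2.39% of pooled calls, and POU3F3, a neural POU factor, in another of 26 kb at 3.04%. The forebrain homeobox pair DLX1 and DLX2 shared 24 kb at 3.03%, and ISL1, a factor of motor neurons and heart progenitors, had 24 kb at 3.08%. The neural factor SOX1 had 23 kb at 3.05%, the limb and axis genes EVX2, HOXD13 and HOXD12 shared 23 kb at 4.42%, and FOXF1, a mesenchymal forkhead factor, had 23 kb at 4.51%. The homeobox gene UNCX and the zinc finger homeobox gene ZFHX3 followed with 22 kb each, at 3.29% and 3.36%. Each of the 12 longest valleys held the start of a transcription factor gene.

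Valleys held the starts of 528 of 18971 autosomal coding genes (2.78%). Among the developmental regulators, a list of transcription factor and signalling genes of the embryo, 125 of 148 (84.5%) started in a valley, and 147 of 148 (99.3%) in a low window. Genes active in every cell mostly had low starts, with 54 of 60 housekeeping genes (90%) and 67 of 72 ribosomal protein genes (93.1%) in a low window. In a valley started 0 of the 60 and 1 of the 72 (1.39%), too few genes to set apart from the 2.78% of all coding genes. Of the pluripotency genes 9 of 31 (29.0%) started in a valley. No olfactory receptor of 403, no germ cell gene of 48 and no tissue gene of 60 did, and 2, 6 and 4 of them started in a low window. In the lists of 48 and 60 genes few valley starts would be met at 2.78% as well. Over all coding genes 12122 (63.9%) started in a low window.

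Promoters were taken from 1000 bp before to 500 bp after the start of the canonical transcript, and 18712 of 18971 had at least 30 pooled calls. Of these 59.1% were low, 20.9% intermediate and 20.0% high. The low share depends on the stretch taken, and was 70.9% from 500 bp upstream and 31.3% from 2000 bp upstream; the counts by gene list below rest on the 1000 bp definition alone. The class followed the CpG content of the promoter. The 12653 CpG-dense promoters, which hold a 500-bp stretch with an observed-to-expected ratio over 0.75 and a GC content over 55%, had a median of 8.08%, and 81.3% were low. The 3712 CpG-poor promoters, in which no stretch passed a ratio of 0.48, had a median of 87.3%, and 52 were low. The 2347 in between had a median of 40.5%, and were spread over low (30.04%), intermediate (34.4%) and high (35.6%). Mean levels over all promoters were 30.7%, 31.0% and 30.7% in the 3 libraries.

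Promoters of the pluripotency genes were mostly low. Of 31 genes, 21 (67.7%) were low, 7 intermediate and 3 high, with a median of 9.07%. Over all coding promoters 59.1% were low. Of the 17 CpG-dense promoters among the 31, 14 were low, close to the 81.3% of all CpG-dense promoters. The promoters of 12 pluripotency markers and 8 fibroblast markers were also read. Of the pluripotency markers 10 were low and L1TD1 and ZFP42 were intermediate. Of the fibroblast markers, VIM (2.32%), COL1A2 (2.97%), COL1A1 (8.39%) and THY1 (11.4%) were low, LUM (76.5%) was intermediate, and POSTN (80.8%), DCN (90.8%) and COL3A1 (91.4%) were high. VIM and COL1A1 have CpG-dense promoters, COL1A2 and THY1 CpG-intermediate ones, and LUM, POSTN, DCN and COL3A1 CpG-poor ones. The split of the fibroblast markers thus went with CpG class and cannot check the label of the cells. A promoter level is no measure of expression, so these values do not count cells of either kind. The feeders were mouse cells, and reads from them were not separated here.

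SOX2, a core pluripotency factor, stood at 0.51%, 2.92% and 0.58%, and NANOG, its partner, at 5.48%, 7.35% and 6.74%. POU5F1, which encodes the pluripotency factor OCT4, was at 20.5%, 8.65% and 15.3% over 78, 104 and 98 calls. Its values spread over more points than those of SOX2 and NANOG. Counting error is larger at its higher level, so the wider spread alone does not show that the libraries differed. PRDM14, a repressor of differentiation in human embryonic stem cells, was at 0.35%, 0.30% and 0%. Under 1% of pooled calls were also DPPA4, ZIC2, the RNA-binding proteins LIN28A and LIN28B, SFRP2, KLF4, TBX3 and the Nodal co-receptor TDGF1. NODAL (1.76%), OTX2 (2.30%), DNMT3B (3.29%) and SALL4 (4.72%) were low, as were FGF2 (9.07%), KLF2 (9.81%), UTF1 (9.90%), KLF5 (11.1%) and ESRRB (13.7%). Low promoters thus included genes of the Nodal pathway, growth factor genes and factors known from mouse stem cells.

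The pluripotency genes with intermediate or high promoters were a mixed group. ZFP42, a zinc finger gene marking stem cells, was at 34.6%, 32.2% and 30.1%, and TFCP2L1, a factor of the mouse ground state, at 24.4%, 22.2% and 21.6%. L1TD1, an RNA-binding protein, stood at 25%, 16.6% and 19.8%, on both sides of the bound of 20%. The Nodal antagonists LEFTY1 and LEFTY2 differed, at 37.6% and 77.1%, and the growth factor GDF3 was at 71.1%. The germline and early embryo gene DPPA3 was at 74.3%, 73.7% and 91.5%, DPPA2 at 86.9%, 77.4% and 80%, KLF17 at 93.5%, 98.1% and 97.2%, and DPPA5 at 97.6%, 100% and 96.8%. DPPA2 and DPPA4, which are neighbours, thus lay at 81.9% and 0.37% of pooled calls.

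The genes that write, read and erase methylation had low promoters in 14 of 18 cases (77.8%), with a median of 12.4%. Over all coding promoters 59.1% were low. Of the 14 CpG-dense promoters of this list 13 were low, against 81.3% of all CpG-dense promoters. The de novo methyltransferase genes DNMT3A and DNMT3B were at 1.96% and 3.29%, and the maintenance gene DNMT1 at 18.0%, 22.3% and 18.0%. UHRF1, which guides DNMT1 to newly copied DNA, was at 23.5%, 22.7% and 13.7%, and its relative UHRF2 at 2.32%. TET2 and TET3 were at 0.62% and 0.78%, and TET1 at 18.2%, 27.0% and 20.3%. DNMT1, UHRF1 and TET1 thus sat at the bound between low and intermediate, with libraries on both sides of it. The glycosylase genes MBD4 and TDG were at 1.399% and 6.49%, KDM2B, a CpG-binding demethylase gene, at 0.41%, the readers MBD2, MBD3 and MBD1 at 11.98%, 12.7% and 13.7%, and the corepressor TRIM28 at 14.8%. ZBTB38 was intermediate at 46.0%. The 2 high promoters were DNMT3L, the cofactor of de novo methylation, at 89.8%, 85.7% and 75.3%, and ZFP57, a guardian of imprints, at 91.5%, 97.0% and 97.6%.

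Developmental regulators had the lowest promoters of all lists, with a median of 1.73%, 146 of 148 low and none high. LHX1, a homeobox regulator of head and kidney development, was at 0.17% and SIX2, a kidney progenitor factor, at 0.23%. PAX8 (25.2%) and LHX3 (29.5%) were the 2 intermediate ones. Housekeeping genes had a median of 4.69%, with 52 of 60 low, from MDH1 (0.13%) and POLR2A (0.17%) to MCM5 (28.4%). Ribosomal protein genes had a median of 8.96%, with 59 of 71 low, from RPL4 (0.15%) and RPL7 (0.24%) to RPL6 (33.4%) and RPS15A (34.3%). None of these 3 lists held a high promoter, against 20.0% of all coding promoters but only 1.99% of the CpG-dense ones. CpG-dense promoters made up 87.2% of the developmental, 96.7% of the housekeeping and 93.0% of the ribosomal protein list. The median of all CpG-dense promoters was 8.08%.

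Germ cell genes stood apart from other genes with CpG-dense promoters. Of 48 genes 33 were high, 10 intermediate and 5 low, with a median of 90.4%, although 35 of the 48 promoters were CpG-dense. Of the 252 CpG-dense promoters over 80%, 23 belonged to this list, which held 35 of all 12653. The meiotic gene SPATA22 was at 97.1%, 97.9% and 94.9%, and SOHLH2 at 97.8%, 99.02% and 96.3%. The germ cell RNA helicase DDX4 was at 96.5%, the translation regulator DAZL at 95.3%, the synaptonemal complex gene SYCP3 at 94.8%, and the piRNA pathway genes TDRD9, MAEL and PIWIL2 at 96.6%, 91.8% and 90.6%. Low ones were DMC1, a recombinase of meiosis, at 1.37%, and SYCE3 at 7.34%, DKKL1 at 17.8%, REC8 at 19.0% and MEIOB at 19.8%. Genes of the same meiotic process, such as DMC1 and SPATA22, thus stood at opposite ends.

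The 8 most methylated CpG-dense promoters with at least 100 pooled calls were RGPD1 (99.2%), RGPD3 (98.8%), CDC14C (98.6%), PRKACG (98.3%), DPPA5 (98.1%), SOHLH2 (97.7%), KBTBD13 (97.6%) and GPR25 (97.5%). RGPD1 was at 98.8%, 99.1% and 100% over 728 calls. RGPD1 and RGPD3 are near-identical copies of 1 family, so reads may have been placed on either, and their levels are uncertain.

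Promoters of tissue genes, mostly CpG-poor, were high in 49 of 60 cases (81.7%), with a median of 87.6%. Of all CpG-poor promoters 71.7% were high, with a median of 87.3%. The liver gene ALB was at 97.6%, 97.6% and 95.3%, and HBG2 at 89.7%, 100% and 100%, over 38 to 42 calls in each library. The lowest were MBP, a myelin gene, at 4.08% and the adult globin gene HBA1 at 4.09%, both CpG-dense. Olfactory receptors, the odorant receptors of nasal neurons, had a median of 84.5%, with 234 of 384 high, 148 intermediate and 2 low. OR11H2 and OR5B3 had the highest, at 100% over only 36 pooled calls (17, 7 and 12 in the libraries) and at 99.3% over 140, and OR52N2 and OR1F1 the lowest, at 16.6% and 17.7%. Zinc finger genes of chromosome 19 had a median of 19.1%, with 127 of 243 low, 91 intermediate and 25 high, from ZNF865 (0.35%) and ZNF524 (0.46%) to ZNF506 (96.1%) and ZNF541 (96.3%). The clustered protocadherins, cell adhesion genes of neurons that share constant exons, had a median of 77.9%, with 8 of 51 low, 20 intermediate and 23 high. PCDHGC4 (2.03%) and PCDHAC2 (2.88%) were lowest, and PCDHGA12 (95.1%) and PCDHGA8 (95.5%) highest.

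**Figure D3:**
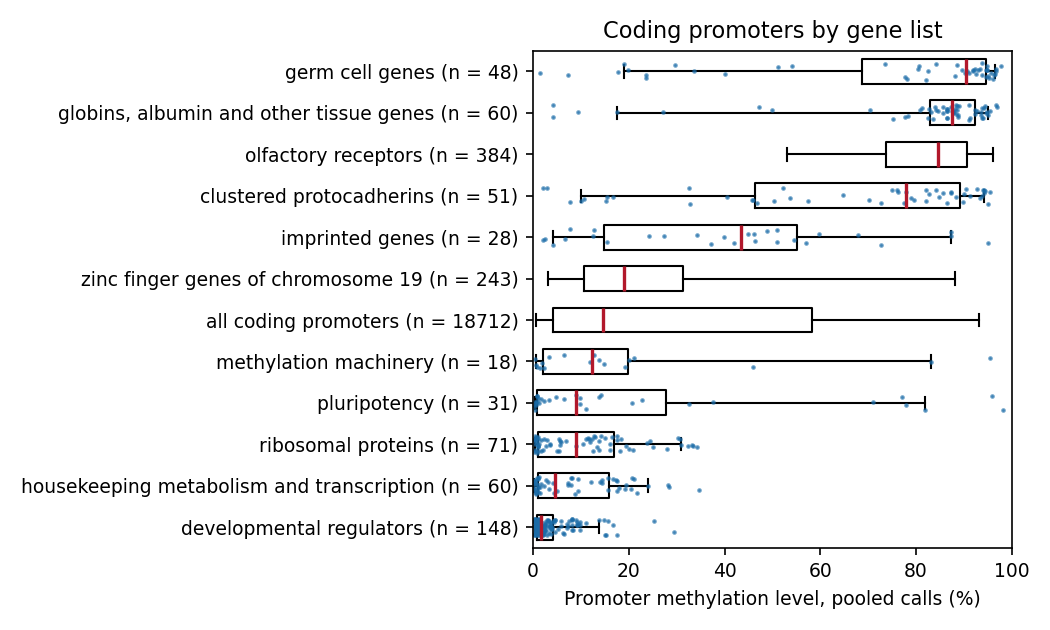
Promoter methylation of pooled calls (x axis, percent) for each gene list and for all coding promoters. Boxes span the quartiles with the median in red, whiskers the 5th to 95th percentile, and points are single promoters in lists of up to 148 genes. Developmental regulators are packed near a median of 1.73%, germ cell genes near 90.4%, and imprinted genes, with shared promoters drawn once per gene, spread around 43.5%.

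Imprinted genes centred near the middle of the scale. The 28 genes with enough calls have 26 distinct promoters, since SNRPN and SNURF share one, as do PEG3 and ZIM2. Of the 26, 16 were intermediate, 8 low and 2 high, with a median of 40.98%. Between 35 and 65% lay 11 of 26 (42.3%), against 953 of all 18638 distinct coding promoters (5.11%). The 11 belong to 12 genes, DIRAS3, MAGEL2, MCTS2, MEST, NAP1L5, NNAT, PLAGL1, RTL1, SNRPN, SNURF, ZNF331 and ZNF597. The promoter of SNRPN and SNURF stood at 48.8%, 57.5% and 47.5%. MCTS2 was at 55.2%, 56.3% and 51.2%, and DIRAS3 at 45.7%, 50.2% and 39.3%. MEST was at 55.2%, 54.0% and 32.7%, and PLAGL1 at 47.0%, 66.2% and 68.1%. In 6 promoters of the 28 imprinted genes (21.4%) the libraries differed by more than 20 points, those of MEST, PLAGL1, NNAT, ZNF597, GRB10 and NDN. The same held for 590 of 18654 coding promoters (3.16%) and for 485 of the 3900 intermediate ones (12.4%). Most of the imprinted promoters were intermediate, and how far their level accounts for this spread was not tested.

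Outside this range were promoters of imprinted genes at both ends. CDKN1C, a growth inhibitor, was at 2.76%, 2.05% and 1.33%, and IGF2, a fetal growth factor, at 4.04%, 2.37% and 0.75%. The promoter of PEG3 and ZIM2 was at 88.4%, 86.7% and 86.5%. MKRN3 was highest at 97.3%, 95.6% and 91.7%, and NDN was at 68.9%, 64.6% and 86.2%. The shared promoter of PEG3 and ZIM2 thus lay far above the middle in every library. The canonical promoter need not be the differentially methylated region of a gene, which was not examined.

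Around gene starts the profile depended on CpG content. With CpG-dense promoters the lowest bin was the 100 bp before the start, at 2.96% ± 0.340 (SD, n = 3), and levels lay under 50% from 1100 bp before to 1300 bp after the start. At 5 kb they reached 79.4% upstream and 83.1% downstream. With promoters of intermediate CpG content the lowest bin was at 27.5% ± 0.727, and with CpG-poor promoters at 71.3% ± 0.331 (SD, n = 3). All 3 classes thus had their lowest bin at the same place, with a dip that was shallow where CpGs were few.

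**Figure D4:**
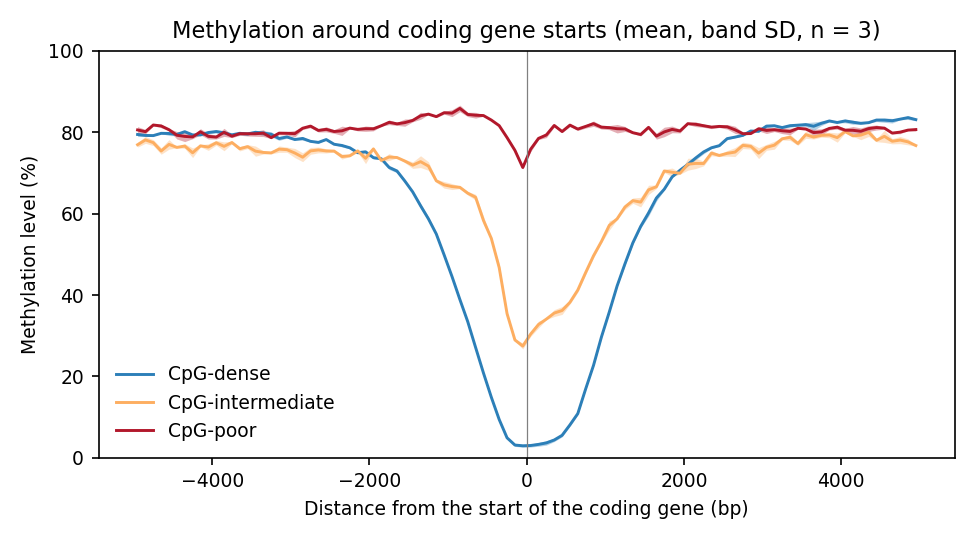
Methylation (y axis, percent, mean of 3 libraries, band SD) in 100-bp bins from 5 kb before to 5 kb after the start of coding genes (x axis, bp), by promoter class. The CpG-dense curve drops to 2.96%, the CpG-intermediate curve to 27.5% and the CpG-poor curve to 71.3%, all in the bin just before the start.

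Gene bodies, from 2 kb inside the start to the end of the gene, were highly methylated. The mean over 17135 bodies was 87.1%, 87.2% and 87.0% in the 3 libraries, or 87.1% ± 0.096 (SD, n = 3), and the median of pooled calls 90.6%. Along 10241 genes cut into 20 equal parts, the level rose from 48.5% in the first part to 87.5% in the next, and then stayed between 88.8% and 89.6% up to the end. Past the end it fell to 82.9% in the first kb and to 80.2% in the tenth. The plateau thus ended within a few kb of the gene end.

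By calls, exons stood at 87.8% ± 0.188 and introns at 89.3% ± 0.104 (SD, n = 3), so exons were 1.48 points lower, in all 3 libraries. Within genes the order was the other way: over 15163 genes the median difference was 0.928 points, with exons higher in 61.3% of genes. The direction thus depends on whether calls or genes are counted.

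Gene lists differed in body methylation as they did at promoters, but not in the same order. Of all bodies 1.14% were low, 9.97% intermediate and 88.9% high. Bodies of developmental regulators had a median of 11.7%, with 73 of 112 low, 38 intermediate and 1 high. Bodies of housekeeping genes (93.0%), ribosomal protein genes (94.0%) and methylation machinery genes (93.3%) had medians above that of all bodies, although their promoters were mostly low. Bodies of all genes with a CpG-dense promoter had a median of 91.3%, also above the 90.6% of all bodies. Pluripotency genes had a median of 79.7%, with 3 of 27 low, 11 intermediate and 13 high. Germ cell genes were at 89.3% and olfactory receptors at 86.0%.

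Among genes of at least 10 kb with at least 1000 calls, 87 bodies were under 50%. The lowest were the developmental regulators ISL1 at 2.06%, 3.79% and 3.05%, SHOX2 at 3.96%, 5.07% and 5.06%, and OTP at 6.01%, 6.19% and 7.06%, followed by SKIDA1 (6.88%) and HOXB3 (7.90%). ISL1 is the gene of a valley named above. The highest were RNPS1 (97.1%), a splicing factor gene, GET3 (97.0%), SUZ12 (96.7%), a subunit of Polycomb complex PRC2, the proton pump gene ATP6V1G1 (96.7%) and the replication factor gene RFC2 (96.7%). RNPS1 was at 97.1%, 97.4% and 96.6%, and SUZ12 at 96.5%, 97.2% and 96.5%.

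Over 100-kb domains the genome was even. The median of 26666 domains was 89.0%, and the 5th and 95th percentiles were 79.7% and 92.3%. Only 395 domains (1.48%) were under 70% and 10 under 50%. The SD between libraries of a domain had a median of 0.544 points, against 4.66 points between domains, so domains differed from each other by more than their libraries did. Domains with no coding start had a median of 89.9%, and those with 6 or more starts 80.7%. In windows with fewer than 21 CpGs the difference was smaller, at 89.96% and 88.3%.

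The HOX clusters, which order the body axis, made up the lowest domains. The HOXB domain (chr17:46600001-46700000, HOXB1 to HOXB9) was at 21.4%, 20.7% and 20.2%. The 2 HOXC domains were at 29.5%, 28.4% and 28.2% (chr12:54300001-54400000) and at 30.8%, 28.5% and 31.4% (chr12:54400001-54500000). The 2 HOXA domains were at 31.0%, 30.8% and 30.5% (chr7:27200001-27300000) and at 33.8%, 35.3% and 35.1% (chr7:27100001-27200000). A HOXD domain followed at 34.9%. A domain of each of the 4 clusters was thus among the 6 lowest of 26666 domains. The neighbouring domain with HOXD4, HOXD3 and HOXD1 (chr2:177000001-177100000) was higher, at 53.9%, 54.2% and 53.7%.

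The highest domains were as even between libraries. They lay over KDM2A (chr11:66900001-67000000) at 95.6%, 95.7% and 95.9%, over ASH1L and RUSC1 (chr1:155300001-155400000) at 95.6% of pooled calls, over NSD1 (chr5:176600001-176700000) at 95.5%, over SMARCC1 (chr3:47700001-47800000) at 95.5%, and over LINC02484 (chr4:34200001-34300000) at 95.3%. KDM2A, ASH1L and NSD1 encode enzymes acting on histone H3 lysine 36, and SMARCC1 a chromatin remodeller subunit. Whether genes of this kind are more frequent in high domains was not tested.

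Intermediate windows were mostly single windows just under the high class. Of these, 52.2% were at 70 to 80%, and only 13.4% were under 50%. Beside a low window lay 8.40%, with a median of 50.8% and 18 CpGs, and the others had a median of 72.1% and 7 CpGs. In runs, 79.9% of 199621 held a single window, while 514 were at least 10 kb long. Among intermediate windows with at least 5 CpGs of 10 or more calls each, on average 13.8% of CpGs were low, 46.7% high and 39.4% between. In 28.1% of them at most 20% of the CpGs were between, which means that most of their CpGs were low or high.

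A further set of stretches, chosen after the values were seen, was partly methylated over long distances. In 577 domains (2.16%) at least 50% of the windows were intermediate. After 70 with over 1.5 times the median calls per CpG were left out, 507 domains (50.7 Mb) formed 153 stretches. Their windows had a median of 72.6%, with 0.386% low, 72.7% intermediate and 26.9% high, and held 10.6% of all intermediate windows of the autosomes. The 44 stretches of at least 400 kb had means from 64.0% to 76.7%, with SDs between libraries from 0.064 to 1.00 points.

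The stretches named here were picked after their values were seen, for the genes they hold. The longest, 2600 kb with 13 coding starts of which 9 were olfactory receptors (chr11:48200001-50800000), was at 66.9%, 66.4% and 66.3%. That of the epidermal genes, with FLG, HRNR, IVL and the LCE and SPRR families among 52 starts (chr1:152000001-153400000), was at 63.8%, 64.2% and 64.2%. The immunoglobulin heavy chain locus, with 176 immunoglobulin gene segments (chr14:106000001-107300000), was at 67.1%, 67.5% and 67.1%. All 3 were within 1 point over the libraries. The olfactory receptors at the end of chromosome 1 (chr1:247900001-248900000, 36 of 38 starts) were at 69.0%, the zinc finger genes around ZNF208 (chr19:22100001-23200000) at 72.3%, and the pregnancy-specific glycoprotein genes PSG1 to PSG9 and PSG11 (chr19:43100001-43800000), at 65.003%. The CYP4F and OR10H genes (chr19:15600001-16100000) were at 68.3%, the LILR and KIR immune receptors (chr19:55000001-55400000) at 70.6% and the NLRP genes around NLRP5 (chr19:56200001-56600000) at 74.1%.

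Of all coding genes 365 (1.92%) started in these stretches. Olfactory receptors accounted for 114 of 403 (28.3%) and zinc finger genes of chromosome 19 for 23 of 243 (9.47%). Of the list of globins, albumin and other tissue genes 2 of 60 (3.33%) did, of germ cell genes 2 of 48 and of imprinted genes 2 of 28. Of developmental regulators, pluripotency, housekeeping and ribosomal protein genes none did. In 85 stretches no coding gene started. Of the 507 domains 195 lay within 1 Mb of an assembly gap of at least 1 Mb, against 1.5% of all domains. Promoter levels inside are in part set by how the domains were chosen and are given as a description. CpG-poor promoters had a median of 69.8% (218) against 87.9% (3494) elsewhere, CpG-intermediate ones 79.8% (75) against 37.8% (2272), and CpG-dense ones 50.1% (49) against 8.03% (12604). The part of repeats, copy number or read placement in these levels was not tested.

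**Figure D5:**
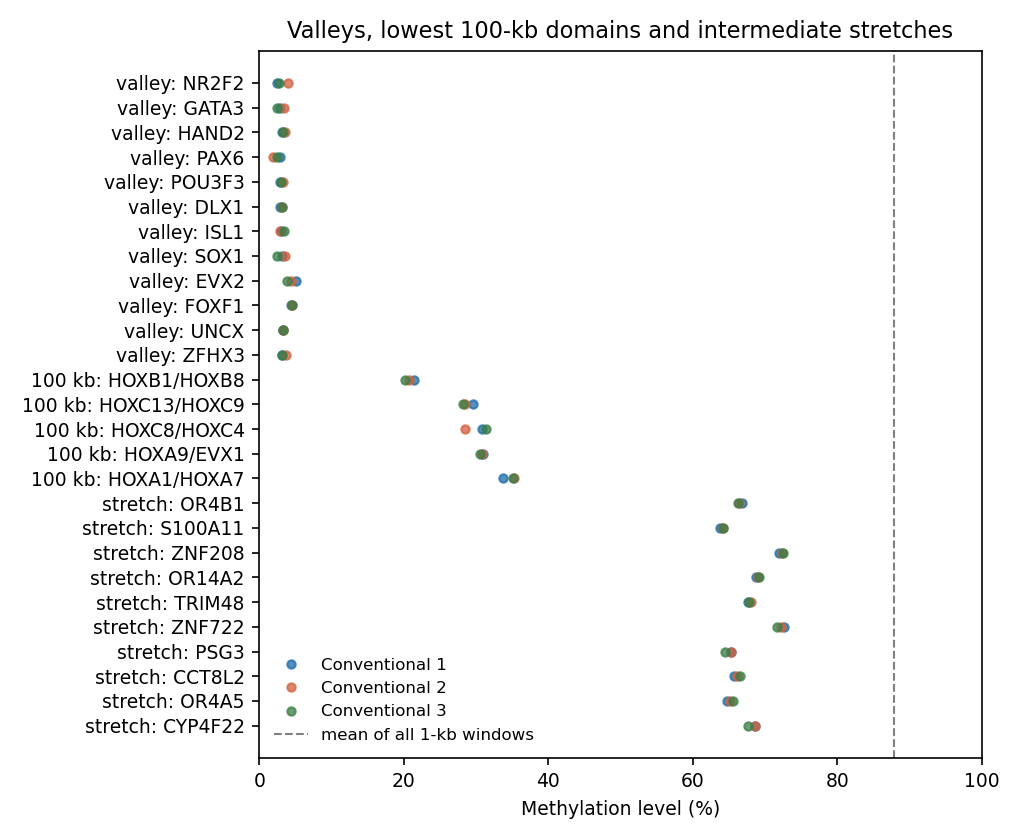
Methylation level (x axis, percent) of the 12 longest valleys, the 5 lowest 100-kb domains and 10 of the longest partly methylated stretches with at least 3 coding starts, named by their first genes, with 1 point per library. Valleys lie under 6%, HOX domains between 20.2% and 35.3% and stretches between 63.8% and 72.6%, and the points of a region nearly coincide.

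The libraries were set against each other last. Across regions they were close: Pearson's r between libraries was 0.838 to 0.842 over 2270251 windows, 0.981 to 0.982 over 18654 promoters and 0.978 to 0.979 over the domains, as descriptions over regions that share libraries. An exact Fisher-Freeman-Halton test of methylated and unmethylated calls in the 3 libraries, with Benjamini-Hochberg adjustment, called 1931 of 18654 promoters (10.4%) and 1923 of 2270251 windows (0.0847%) at an adjusted p under 0.05. Unadjusted, 4348 promoters and 158277 windows passed. The variance between libraries was 2.30 times the binomial value in promoters and 1.20 times in windows. When CpGs were thinned to be at least 150 bp apart, so that a read gives fewer calls, the same test called 0 of 17724 promoters (646 unadjusted) and a chi-square test also 0 (692 unadjusted). For windows both called 1 of 1524973. The ratio to the binomial variance was then 1.02 for each. Thinning also cut the median calls of a promoter from 568 to 67, so how much of the drop came from fewer calls was not tested.

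Intermediate promoters differed between libraries most often, in 21.3% of cases, against 9.13% of low and 2.45% of high ones, and CpG-dense promoters in 13.3% against 1.99% of CpG-poor ones. Against the 10.4% of all promoters, imprinted genes were called in 10 of 28 cases (35.7%; 10 of 26 distinct promoters), zinc finger genes of chromosome 19 in 35 of 243 (14.4%), ribosomal protein genes in 12 of 71 (16.9%), pluripotency genes in 3 of 31 (9.68%), methylation machinery genes in 3 of 18 (16.7%), protocadherins in 4 of 51 (7.84%) and housekeeping genes in 4 of 60 (6.67%). Germ cell genes were called in 5 of 48 (10.4%), developmental regulators in 5 of 148 (3.38%), olfactory receptors in 7 of 375 (1.87%) and tissue genes in 1 of 59 (1.69%). The lists differ in the calls and levels of their promoters, and none of these counts held with thinned CpGs. Among the 1931 called promoters the library furthest from the others was library 1 in 604, library 2 in 688 and library 3 in 639, so no library accounted for most of them. Leaving out a library left 4.78%, 3.88% or 4.27% of promoters called without libraries 1, 2 and 3, and 0.0224%, 0.0186% or 0.0208% of windows.

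Several of the 8 largest ranges between libraries rested on few calls. SPRN, a prion-like gene, was at 90%, 50% and 28.2% over 20, 24 and 39 calls, with an adjusted p of 0.00094 by the exact Fisher-Freeman-Halton test. ROPN1, a sperm gene, was at 81.3%, 31.6% and 87.0%, NOMO3, of a family of near-identical copies, at 27.7%, 2.44% and 55%, and OR2W1 at 75%, 95.5% and 47.6%. These 4 had at most 47 calls in any library. ZNF280D had more calls, 350, 210 and 214, and was at 70.3%, 84.3% and 36.9%, with an adjusted p of 1.4e-21 by the same exact test. With thinned CpGs its levels were 82.8%, 76.2% and 55%, in a different order of the first pair, and the adjusted p was 1. ENSG00000258417 (27.3%, 81.3% and 38.1%), MYMX (25.5%, 69.6% and 60.98%) and NPEPPS (39.8%, 59.3% and 15.8%) completed the 8.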

How the data were processed

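Per the labels, the authors prepared sonicated H9 DNA with methylated adaptors, converted it with bisulfite, and processed the reads with Trim Galore, Bowtie2 and Bismark 0.9.0 on GRCh37. Removal of duplicate reads is not given in the sources used here. The deposited files give, for each cytosine, counts of methylated and unmethylated calls and a percent; the counts were used, and the percent column, which the authors made from them, matched the counts in each of the 3 files. Of the cytosines, 99.8% fell on a CpG of GRCh37 when positions were counted from 0, against 51.0% counted from 1. Positions were therefore read from 0, both strands of a CpG were summed, and printed coordinates count from 1. The 3 Reset files and the sex chromosomes were not analysed here.

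Levels are methylated over all calls, on the 22 autosomes, with annotation of GENCODE lifted to GRCh37 and canonical transcripts of coding genes. Windows, promoters and bodies needed 30 pooled calls, and domains 20 windows. Values are given as mean ± SD over 3 libraries, with no test between regions, since 3 libraries cannot reach a two-sided exact p under 0.25. The main test was the exact Fisher-Freeman-Halton test between libraries (at least 10 calls in each, adjusted p under 0.05). It was replaced by a chi-square test where the product of the library counts exceeded 4000000. A chi-square test between libraries was also run as an alternative, on all and on thinned CpGs. On simulated promoters, with 1 library moved by 20 points in 200 of 18654, the exact test recovered 78.5% with 9 false calls. With a move of 40 points it recovered 98.0%, with 10 false calls. In the libraries the calls of 1 read are not independent, so the test covers counting error only. The variance between libraries in promoters was 2.30 times the binomial value. The false calls of the simulation may therefore not carry over to the promoters called in the libraries. No columns of per-sample values were left unmapped. Python 3.11.15, numpy 2.4.6, pandas 2.3.3, scipy 1.17.1 and numba 0.67.0 were used.

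The members and the gene lists were chosen with earlier results of these data known. Of the imprinted list 28 of 35 names, and of the germ cell list 48 of 50, matched an autosomal coding gene. Named were the 12 longest valleys, the 8 most methylated CpG-dense promoters, the 5 lowest and 5 highest bodies and domains, all pluripotency and methylation machinery promoters, the 2 lowest and 2 highest promoters of the other lists (1 housekeeping promoter is not reported here), and the 8 promoters with the largest range between libraries. Other genes, such as further members of the germ cell, imprinted and marker lists and the genes of the partly methylated stretches, were named after their values were seen. Alternatives covered call minimums, window and promoter sizes, class bounds, highly covered windows, thinned CpGs and leaving out each library.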

Additional observations from a re-analysis of the deposited data

How the results depend on the processing

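The mean window level stayed between 87.6% and 87.9%: 87.7% with at least 60 calls, 87.6% in 500-bp and 87.8% in 2-kb windows, and 87.8% to 87.9% without 1 library. The low share was 1.34% with at least 10 calls, 1.70% with at least 60, 1.45% with 10 in every library, 2.03% in 500-bp and 1.10% in 2-kb windows, 1.47% as a mean over CpGs, 1.01% and 1.74% with bounds of 10 and 90% or 30 and 70%, and 1.501% to 1.512% without 1 library. The intermediate share was 11.4% with at least 10 calls, 10.5% with at least 60, 11.4% in 500-bp and 10.3% in 2-kb windows, 11.3% as a mean over CpGs, and 11.2% to 11.3% without 1 library. With bounds of 10 and 90% it was 37.3%, and with 30 and 70% it was 4.68%, so it depends on the bounds. Valleys numbered 441 with a bound of 10%, 807 with 30%, and 633 to 641 without 1 library. Domains under 70% made up 1.80% in 50-kb bins, 1.04% in 1-Mb bins, 1.29% without windows of 21 or more CpGs, and 1.41% to 1.42% without 1 library.

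Low promoters made up 70.9% from 500 bp upstream, 31.3% from 2000 bp upstream, and 40.3% with a bound of 10%, so this share depends on the promoter chosen, and 58.7% to 59.5% without 1 library. Mean gene body levels were 88.4% from 5 kb inside and 89.3% without windows of 21 or more CpGs. The share of promoters that differed between libraries was 0% with thinned CpGs and 3.88% to 4.78% without 1 library. That of windows was 6.6e-05% with thinned CpGs, 0.140% with at least 20 calls in each library, and 0.0186% to 0.0224% without 1 library. The set of domains with at least 50% intermediate windows, and its alternatives, were chosen after seeing the data: the share was 2.16%, with 2.52% at 40% of windows, 1.84% at 60%, 1.92% with 60 calls, and 2.03% to 2.05% without 1 library. No paired analysis was possible because only 1 group of libraries is described, with no second group to pair it with. The difference between exons and introns was taken within each library. Depth limits single windows, at a median of 30 to 32 calls in a library, more than shares over many windows.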

Other observations

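The bases next to a CpG went with its level. In windows with at most 10 CpGs, CpGs within GCGC were at 91.3% ± 0.054 and those within ACGT at 85.5% ± 0.097 (SD, n = 3), with the other 8 contexts between. In each library GCGC was the highest and ACGT the lowest. The level was the same on both strands, with a mean difference of 0.003 points. Of 13661781 CpGs with at least 10 pooled calls, 34.6% were methylated in every call, 3.15% in none and 12.8% in 20 to 80% of calls. CpGs 2 to 10 bp apart correlated at r = 0.907 over 1537927 pairs and those 51 to 100 bp apart at r = 0.816 over 5149837 pairs. Close CpGs share reads, so these values describe the libraries.

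Chromosomes differed as well. Chromosome 19, rich in zinc finger genes, was lowest at 82.5%, 82.5% and 82.4% over its windows, with 21.2% intermediate and 3.52% low. Chromosome 13 was highest at 89.0%, 89.1% and 89.0%, with 9.63% intermediate and 0.895% low. The gap between them exceeded the spread between libraries, which had an SD of at most 0.112 points on any autosome.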
